A study of Mus musculus with 6 samples.

Results

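The mitochondrial carrier family has genes named Slc25a followed by a number. It was followed in RNA of sorted atrial nuclei from Prrx1(R1A)-/- and control mice. Members were taken as every row of the deposited expression table whose gene symbol is Slc25a and a number. That rule uses no measured value, but it was set with earlier results of these data known. This gave 47 of the 26332 genes with values, and 40 of them, those with 10 or more normalized counts in 3 or more libraries, entered the test. The study sorted nuclei of both atria by PCM1, a protein that marks the envelope of cardiomyocyte nuclei, and made 1 library for each of 3 Prrx1(R1A)-/- and 3 control mice, all 8 to 12 weeks old. Prrx1(R1A)-/- is the genotype name in the labels, which belongs to a study of noncoding DNA near the transcription factor gene Prrx1, and the controls are headed wt in the table. Left and right atria of an animal were combined, so the chambers cannot be compared. The nuclear RNA carries transcripts still being made as well as finished ones.

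Mitochondrial carriers are small proteins that sit mostly in the inner mitochondrial membrane and exchange metabolites, nucleotides, cofactors and ions between the matrix and the cytosol. Heart muscle depends on them to send ATP out, to bring ADP, phosphate and fatty acyl groups in, and to move the reducing equivalents of glycolysis by the malate-aspartate shuttle. Several members come as pairs of close relatives with the same substrate and different tissue patterns.

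Libraries held 10580961 to 14658584 reads, recovered from the normalized counts, and 6465255 to 9807543 once ribosomal RNA was set aside. Control replicate 1 had the highest ribosomal RNA share of the 6 libraries (46.5%) and the fewest other reads, and its correlation with the other libraries across genes was 0.890 to 0.908, against 0.912 to 0.958 among the other 5. Prrx1 itself had 192.7 ± 9.07 normalized counts in Prrx1(R1A)-/- nuclei and 344.0 ± 67.0 in control nuclei (SD, n = 3 each), with no overlap between the groups and a log2 fold change of -0.82 ± 0.25 (SE; adjusted p = 0.270 by limma). The cardiomyocyte markers were present at high levels in every library. Their summed normalized count over 8 genes was 800457 to 1500968 in Prrx1(R1A)-/- libraries and 299197 to 573032 in controls. Ttn made up most of each sum, at 581431 to 1235387 in Prrx1(R1A)-/- libraries and 217140 to 443906 in controls. All 8 genes lay above 0 in log2 fold change. Groups did not overlap for Myh6, Tnnt2, Tnni3, Actn2, Ttn and Ryr2, and overlapped for Myl7 (0.51 ± 0.29) and Nppa (0.37 ± 0.39). Fibroblast markers ran the other way, at 10260 to 10848 in Prrx1(R1A)-/- libraries and 15390 to 21197 in controls over 5 genes, 5 of 5 below 0. Immune markers summed to 4209 to 4756 in Prrx1(R1A)-/- libraries and 4876 to 8233 in controls over 6 genes, and endothelial markers to 9236 to 11278 in Prrx1(R1A)-/- libraries and 9292 to 11214 in controls over 4 genes. Smooth muscle and pericyte markers summed to 608.4 to 1457 in Prrx1(R1A)-/- libraries and 602.7 to 941.4 in controls over 4 genes, and Schwann cell markers to 95.5 to 97.0 in Prrx1(R1A)-/- libraries and 88.1 to 142.3 in controls over 3 genes. The 4 adipocyte markers summed to 273.6 to 396.0 in Prrx1(R1A)-/- libraries and 276.8 to 1006 in controls. Fabp4 made up most of each sum, at 256.7 to 332.4 in Prrx1(R1A)-/- libraries and 226.5 to 865.1 in controls. Fabp4 and Plin1 lay below 0 in log2 fold change and Cidec above, while Adipoq was under the filter. The brown adipocyte marker Ucp1 was at 0 to 2.17 normalized counts in Prrx1(R1A)-/- libraries and 0 to 5.24 in controls. The libraries thus held RNA of other cell types too. In control nuclei Dcn averaged 7717 and Pecam1 6014 normalized counts, against 53900 for Myh6, 2643 for Tnni3 and 2370 for Actn2. The carrier levels below may therefore not be those of cardiomyocytes alone. In such bulk samples fewer cells of a type and less RNA per cell cannot be told apart. The part of these markers in the differences below was not tested.

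Slc25a34 had the clearest difference in the family, with 4.28-fold more RNA in Prrx1(R1A)-/- nuclei, while the median of the family lay close to 0. Slc25a34 is an orphan carrier, with no settled substrate. It had 116.2, 90.0 and 163.7 normalized counts in the 3 Prrx1(R1A)-/- libraries, against 17.6, 38.2 and 29.7 in the 3 control libraries. Every Prrx1(R1A)-/- library lay above every control, and the lowest of them was more than 2 times the highest control. The log2 fold change was 2.10 ± 0.43 (SE; 95% interval 1.16 to 3.04), which did not pass over all genes by limma (adjusted p = 0.116, unadjusted p = 0.00042). The counts behind it were 107, 75 and 162 reads in Prrx1(R1A)-/- and 14, 51 and 40 reads in control libraries. DESeq2 on those reads called it (log2 fold change 2.09, adjusted p = 0.00071), edgeR did not (adjusted p = 0.113), and limma called it once control replicate 1 was left out (1.80, adjusted p = 0.016). Over all alternatives its adjusted p ranged from 0.00071 to 0.564. The authors' deposited table gives it 1.58 on the log2 scale (adjusted p = 0.0011). Deposited values of Slc25a5, Slc25a15 and Slc25a25 (-0.81, -0.74 and 0.66) were likewise nearer 0 than those of DESeq2 here (-1.17, -1.11 and 0.80). The reason was not tested, so the 2 scales may not be alike. The deposited table holds only genes with an unadjusted p under 0.05 in the authors' DESeq2 comparison. It lists 5 of the 47 members (7.22% of all genes with values), Slc25a31, which is under the filter here, among them. Slc25a34 is the 1 member with an adjusted p under 0.05 there (0.862% of all genes). Slc25a34 spans bases 141618824 to 141623821 of chromosome 4, minus strand (GRCm38), and none of its exons shares bases with a gene on the other strand.

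The family as a whole was centred on 0. Of the 40 tested members, 20 lay above 0 and 20 below, with a median log2 fold change of -0.01, against -0.00 over all 14584 genes tested. None passed the adjusted threshold by limma, where 2 genes did in all (0.0137%). With edgeR 0 members passed, and with DESeq2 1 did, higher in Prrx1(R1A)-/- nuclei (1.09% of all genes passed in that direction and 1.67% in either). At an unadjusted p under 0.05 limma had 4 of 40 members, Slc25a34 and Slc25a25 higher and Slc25a15 and Slc25a5 lower, beside 11.9% of all genes (6.67% higher and 5.25% lower). edgeR had 3 of 40 at that level, beside 12.0% of all genes. Groups did not overlap for 9 members, 7 higher and 2 lower in Prrx1(R1A)-/- nuclei, beside 17.2% of all genes (8.89% higher and 8.36% lower). The 7 were Slc25a34, Slc25a23, Slc25a42, Slc25a26, Slc25a18, Slc25a45 and Slc25a47, and the 2 were Slc25a15 and Slc25a21. For 14 of the 40 the 95% interval stayed inside a 2-fold change in either direction, as it did for 5052 of all 14584 genes. Those 14 include the abundant carriers Slc25a4, Slc25a23, Slc25a51, Slc25a37, Slc25a12 and Slc25a3.

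Windows upstream of annotated start sites are shown for the 4 members with an unadjusted p under 0.05 by limma. Which start site was used in these nuclei was not tested. Each window is the 250 bases before the most upstream start site in RefSeq (GRCm38.p6), written 5′ to 3′ on the gene's strand. Capitals mark a GC box (GGGCGG, on either strand) and, in Slc25a34, a nuclear receptor half-site (AAGGTCA, on either strand), a motif chosen after the sequence had been read. The windows are chr4:141623835-141624084 on the minus strand for Slc25a34, chr2:32451471-32451720 on the minus strand for Slc25a25, which has 3 start sites, chrX:36795347-36795596 on the plus strand for Slc25a5, and chr8:22398622-22398871 on the minus strand for Slc25a15, which has 2.
Slc25a34: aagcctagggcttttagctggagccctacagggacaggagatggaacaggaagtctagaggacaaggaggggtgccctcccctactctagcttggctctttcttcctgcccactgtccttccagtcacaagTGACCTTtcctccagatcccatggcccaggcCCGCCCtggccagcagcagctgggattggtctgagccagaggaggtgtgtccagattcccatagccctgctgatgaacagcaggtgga
Slc25a25: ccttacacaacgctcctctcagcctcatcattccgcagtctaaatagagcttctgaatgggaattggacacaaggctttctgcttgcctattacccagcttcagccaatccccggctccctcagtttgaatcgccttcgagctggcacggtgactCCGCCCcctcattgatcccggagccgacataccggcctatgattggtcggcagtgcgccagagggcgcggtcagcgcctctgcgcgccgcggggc
Slc25a5: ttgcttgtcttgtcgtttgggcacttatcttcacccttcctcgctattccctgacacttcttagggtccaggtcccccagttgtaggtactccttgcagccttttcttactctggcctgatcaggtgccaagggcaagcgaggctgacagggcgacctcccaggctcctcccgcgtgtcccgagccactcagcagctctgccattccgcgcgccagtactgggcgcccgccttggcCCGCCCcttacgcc
Slc25a15: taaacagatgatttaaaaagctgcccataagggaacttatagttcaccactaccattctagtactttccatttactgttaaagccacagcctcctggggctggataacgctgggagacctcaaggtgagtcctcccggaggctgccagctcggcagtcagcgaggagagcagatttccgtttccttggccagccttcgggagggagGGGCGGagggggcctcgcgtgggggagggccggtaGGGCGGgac
The window of Slc25a34 holds 1 GC box and the half-site, those of Slc25a25 and Slc25a5 hold 1 GC box each, and that of Slc25a15 holds 2. A RefSeq window was found for 36 of the 47 members, and 25 of the 36 (69.4%) had a GC box in at least 1 window, beside 35.4% of all 27025 genes. The half-site was in a window of 1 member, Slc25a34, of 36 (2.78%), beside 4.70% of all genes. The 2 motifs share no bases here.

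**Figure D1:**
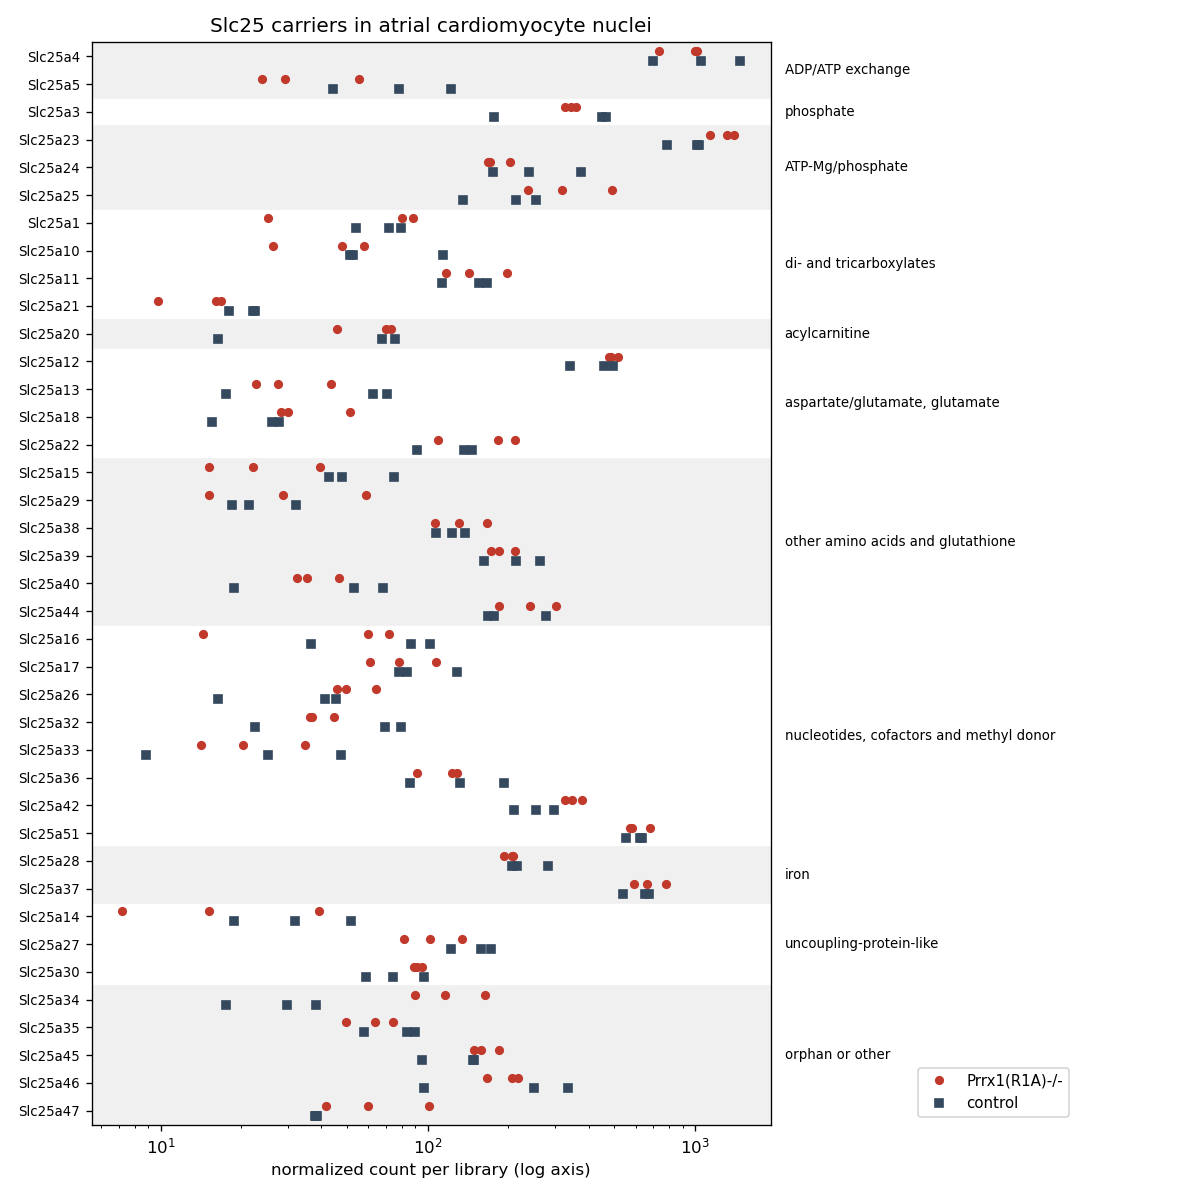
Normalized count of 39 tested Slc25 genes in each library, on a log axis, grouped by the substrate named at the right. Red circles are the 3 Prrx1(R1A)-/- libraries and dark squares the 3 control libraries; Slc25a34 is separated by genotype, while most rows overlap.

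The summed normalized count of all 47 members was 8258, 7829 and 7915 in Prrx1(R1A)-/- libraries, against 6601, 7766 and 8458 in control libraries. Of the reads that were not ribosomal RNA the family took 0.0873%, 0.0767% and 0.0887% in Prrx1(R1A)-/- libraries, against 0.0811%, 0.111% and 0.116% in control libraries. The groups overlapped on both scales, which leaned in different directions. The mean sum was 8000 ± 227 in Prrx1(R1A)-/- and 7608 ± 939 in control libraries (SD). The shares of control replicates 2 and 3 lay above every Prrx1(R1A)-/- share. The 5 members with most reads in a library held 45.7% to 50.8% of the family's reads, and the leading member was Slc25a23 in every Prrx1(R1A)-/- library and in control replicate 1, and Slc25a4 in control replicates 2 and 3.

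The level of each gene per length was set against the others as the normalized count per kilobase of annotated exon. Slc25a4, the ADP/ATP exchanger of heart and skeletal muscle, stood first in both genotypes at 390.6 ± 68.2 in Prrx1(R1A)-/- and 457.3 ± 166 in control nuclei (SD, n = 3 each). Slc25a23, a calcium-activated carrier of ATP-Mg and phosphate, came next at 243.4 ± 25.1 in Prrx1(R1A)-/- and 179.0 ± 26.7 in control nuclei. The NAD carrier Slc25a51 (111.2 ± 10.9 in Prrx1(R1A)-/-, 109.5 ± 8.26 in control) and the iron importer Slc25a37 (112.6 ± 15.7 in Prrx1(R1A)-/-, 103.0 ± 12.0 in control) followed, and these neighbours did not differ beyond their spread. Over the whole order the libraries of adjacent genes overlapped for 34 of 39 adjacent pairs in Prrx1(R1A)-/- nuclei and for 37 of 39 in control nuclei, and the pairs that stood apart in both were Slc25a4 over Slc25a23 and Slc25a23 over the gene after it. Slc25a5 was at 22.0 ± 10.2 in Prrx1(R1A)-/- nuclei, place 23, and at 49.4 ± 23.8 in control nuclei, place 12. Slc25a34 was at 46.2 ± 14 in Prrx1(R1A)-/- nuclei and at 10.7 ± 3.87 in control nuclei. The lowest tested member in both was Slc25a21, a carrier of oxodicarboxylates, at 2.92 ± 0.80 in Prrx1(R1A)-/- and 4.30 ± 0.53 in control nuclei. Exon lengths come from an annotation that may differ from the authors', so the order depends on it.

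**Figure D2:**
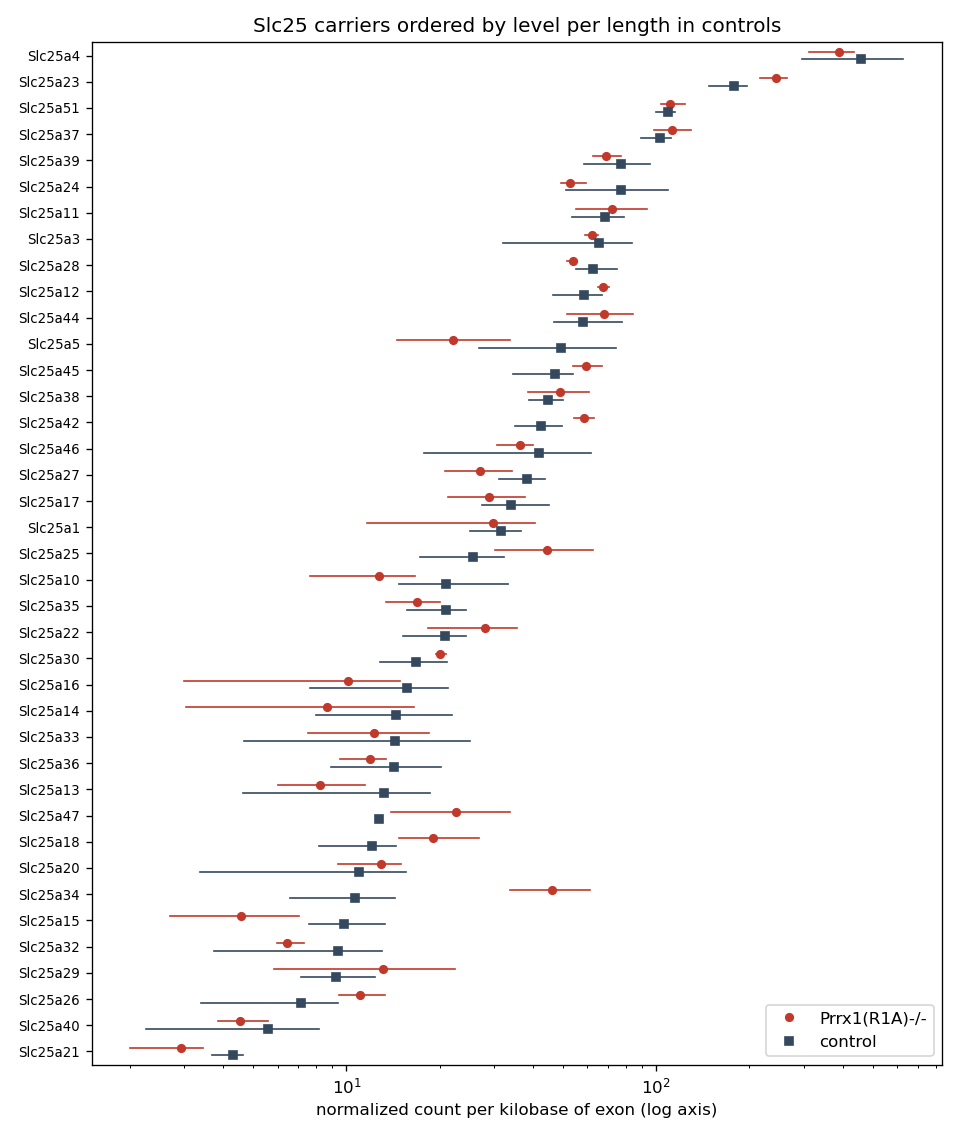
Mean normalized count per kilobase of exon for 39 tested Slc25 genes, on a log axis, ordered by the control mean; red circles are Prrx1(R1A)-/- and dark squares control, and lines span the lowest to the highest of 3 libraries. Slc25a4 stands first in both genotypes at 390.6 and 457.3, and Slc25a34 and Slc25a5 have their circle and square far apart.

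The 2 tested ADP/ATP exchangers, which trade matrix ATP for cytosolic ADP, both lay below 0 and neither passed the test. Slc25a4 had 999.9, 734.3 and 1023 normalized counts in Prrx1(R1A)-/- libraries, against 698.3, 1052 and 1478 in controls. Its groups overlapped throughout, with a log2 fold change of -0.18 ± 0.28 (95% interval -0.79 to 0.44). Slc25a5, the form of many proliferating tissues, had 55.4, 24.0 and 29.3 normalized counts in Prrx1(R1A)-/- libraries, against 44.0, 122.1 and 77.9 in controls. Prrx1(R1A)-/- replicate 1 lay above control replicate 1, so the groups overlapped by that pair alone, at -1.12 ± 0.49 on the log2 scale (adjusted p = 0.406 by limma). Without control replicate 1 it was -1.49 (adjusted p = 0.067 by limma). Slc25a4 and Slc25a5 are close paralogues, and how the authors counted reads that fit both is not given in the sources used here. Slc25a31, the germ cell form, was under the filter with 0, 0 and 1 reads in Prrx1(R1A)-/- libraries, against 26, 14 and 5 reads in controls. All controls lay above all Prrx1(R1A)-/- libraries, and a count of 0 allows up to 3 reads, which is 3.26 and 3.60 normalized counts in those 2 libraries. In limma without the filter, the one fit run that included it, Slc25a31 did not pass (unadjusted p = 0.0022, adjusted p = 0.235), and in the authors' deposited table its unadjusted p was 0.0051 with no adjusted value.

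Slc25a3, which carries the phosphate that ATP synthase needs, had 360.4, 344.4 and 327.5 normalized counts in Prrx1(R1A)-/- libraries, against 177.4, 450.9 and 463.5 in controls. Its Prrx1(R1A)-/- values sat close together and inside the control range, since control replicate 1 was low and the other controls high. The log2 fold change of 0.04 ± 0.35 became -0.41 without control replicate 1 (adjusted p = 0.211 by limma), and it was below 0 with quantile scaling, edgeR and DESeq2 too.

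Carriers of ATP-Mg and phosphate, which load the matrix with adenine nucleotides when cytosolic calcium rises, pointed in different directions, with 2 of 3 tested members above 0. Slc25a23 had 1405, 1317 and 1144 normalized counts in Prrx1(R1A)-/- libraries, against 1039, 784.9 and 1019 in controls. No library crossed between the groups, and the log2 fold change was 0.45 ± 0.21 (95% interval -0.01 to 0.91; adjusted p = 0.431 by limma). Slc25a25 had 237.8, 318.0 and 491.2 in Prrx1(R1A)-/- libraries, against 254.2, 135.6 and 214.3 in controls. Control replicate 1 lay above Prrx1(R1A)-/- replicate 1, and the difference was 0.77 ± 0.33 on the log2 scale (adjusted p = 0.394 by limma). Slc25a24 had 204.1, 171.6 and 168.8 in Prrx1(R1A)-/- libraries, against 176.2, 375.2 and 239.5 in controls, which is -0.47 ± 0.31. Exons of Slc25a23 share bases with Gm17168 and those of Slc25a25 with Naif1, both on the other strand, and reads of such partners cannot be told apart in a library without strand. Slc25a41, a relative without the calcium-binding domain, was under the filter at 6.06 to 10.8 normalized counts in Prrx1(R1A)-/- and 2.97 to 8.81 in control libraries. It lies 2056 bases from Slc25a23 on the same strand of chromosome 17.

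**Figure D3:**
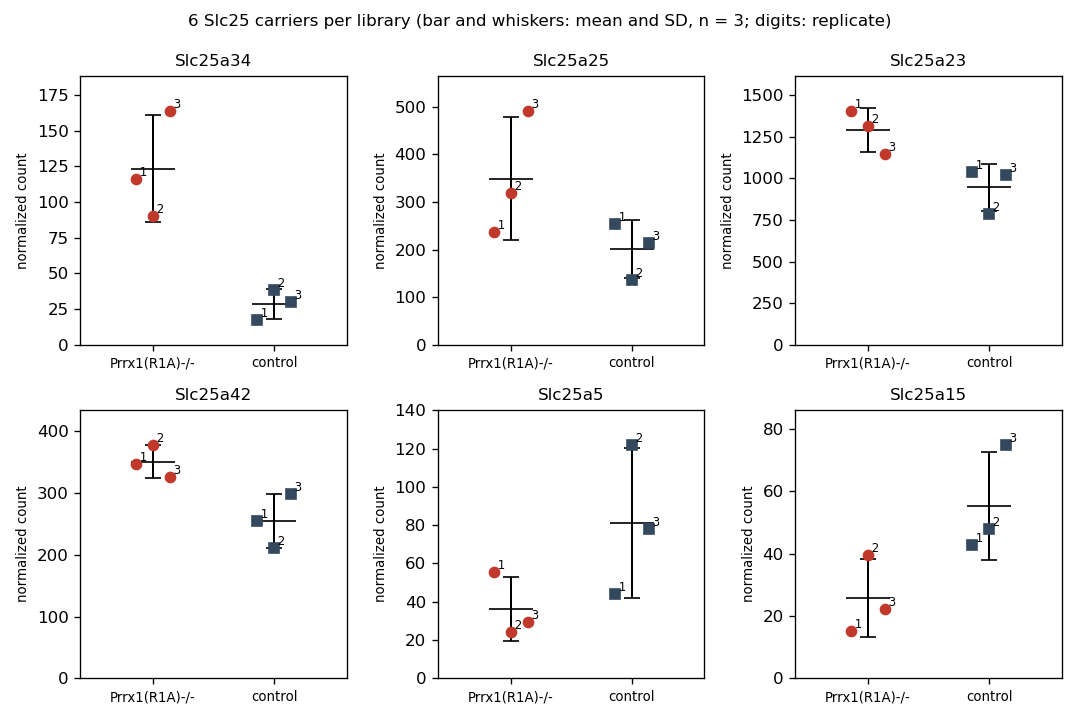
Normalized counts of 6 Slc25 genes in each library, with Prrx1(R1A)-/- on the left of each panel and control on the right; horizontal bars and whiskers are the mean and SD of 3 libraries and digits the replicate number. Groups are apart for Slc25a34, Slc25a23, Slc25a42 and Slc25a15, and overlap for Slc25a25 and Slc25a5.

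Carriers of di- and tricarboxylates had 1 of 4 members above 0 and a median log2 fold change of -0.41. Slc25a11, the oxoglutarate-malate exchanger of the malate-aspartate shuttle, had 198.7, 142.8 and 117.2 normalized counts in Prrx1(R1A)-/- libraries, against 113.2, 155.8 and 166.8 in controls. Slc25a1, which exports citrate, had 80.3, 25.2 and 87.9 in Prrx1(R1A)-/- libraries, against 54.1, 71.9 and 79.3 in controls. Both genes overlapped between genotypes, at 0.06 ± 0.31 and -0.26 ± 0.49. Slc25a10, the dicarboxylate carrier, averaged 43.9 ± 16.0 in Prrx1(R1A)-/- and 72.7 ± 36.2 in control nuclei (SD, n = 3 each), with 114.5 in control replicate 1. Slc25a21 was lower in each Prrx1(R1A)-/- library (9.77 to 16.8) than in each control (17.98 to 22.6), at -0.55 ± 0.58 on the log2 scale (adjusted p = 0.733 by limma). Exons of Slc25a11, Slc25a10 and Slc25a21 share bases with a gene on the other strand.

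Slc25a20, which brings acylcarnitines in for fatty acid oxidation, had 45.6, 69.6 and 72.8 normalized counts in Prrx1(R1A)-/- libraries, against 16.4, 67.4 and 75.6 in controls. Control replicate 1 was the low library. The log2 fold change was 0.47 ± 0.56 with all libraries and -0.22 without that library, and neither passed (adjusted p = 0.771 and 0.775 by limma).

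Aspartate and glutamate carriers had 3 of 4 members above 0 and a median of 0.31. Slc25a12, the aspartate-glutamate exchanger of muscle and brain, had 516.8, 485.9 and 477.0 normalized counts in Prrx1(R1A)-/- libraries, against 342.3, 492.1 and 457.5 in controls. Its interval was among the narrowest of these (log2 fold change 0.21 ± 0.23; -0.29 to 0.72). Slc25a13, its liver counterpart, had 22.8, 27.6 and 43.5 in Prrx1(R1A)-/- libraries, against 17.6, 62.2 and 70.4 in controls, at -0.49 ± 0.58. The glutamate carrier Slc25a22 had 109.7, 183.6 and 212.2 in Prrx1(R1A)-/- libraries, against 146.0, 91.4 and 137.2 in controls (0.41 ± 0.34). Slc25a18, the second glutamate carrier, had 51.0, 30.0 and 28.3 in Prrx1(R1A)-/- libraries, against 27.7, 26.2 and 15.6 in controls. Its groups did not overlap, but Prrx1(R1A)-/- replicate 3 and control replicate 1 lay within 1 read's worth of each other, and the log2 fold change was 0.62 ± 0.51. Exons of Slc25a18 share bases with Atp6v1e1.

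Among carriers of other amino acids and glutathione, 3 of 6 tested members lay above 0 and the median was -0.00. Slc25a15, the ornithine carrier of the urea cycle, had 15.2, 39.6 and 22.2 normalized counts in Prrx1(R1A)-/- libraries, against 42.8, 47.9 and 74.9 in controls. The groups were apart by a narrow gap, at -1.14 ± 0.50 on the log2 scale (adjusted p = 0.406 by limma). Slc25a39, which imports glutathione, had 172.6, 212.4 and 185.0 in Prrx1(R1A)-/- libraries, against 263.0, 161.8 and 213.6 in controls. Slc25a44, a branched-chain amino acid carrier, had 184.6, 301.2 and 241.6 in Prrx1(R1A)-/- libraries, against 276.8, 176.8 and 167.6 in controls. Both overlapped, at -0.14 ± 0.28 and 0.24 ± 0.30. The glycine carrier Slc25a38, the glutathione importer Slc25a40 and the basic amino acid carrier Slc25a29 lay between -0.12 and 0.33. Slc25a2, a second ornithine carrier, was under the filter at 9.10 to 15.6 in Prrx1(R1A)-/- and 6.29 to 9.64 in control libraries.

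Carriers of nucleotides, cofactors and the methyl donor had 4 of 9 members above 0 and a median of -0.03. Slc25a42, which brings coenzyme A into the matrix, had 347.4, 378.0 and 325.4 normalized counts in Prrx1(R1A)-/- libraries, against 254.2, 210.5 and 298.1 in controls. The groups did not overlap, and the log2 fold change was 0.47 ± 0.24 (95% interval -0.06 to 1.01; adjusted p = 0.465 by limma). Slc25a51 had 681.8, 583.1 and 573.1 in Prrx1(R1A)-/- libraries, against 625.4, 551.2 and 634.0 in controls. Its difference of 0.02 ± 0.21 had an interval of -0.44 to 0.48. Slc25a26, which imports S-adenosylmethionine, had 64.1, 45.6 and 49.5 in Prrx1(R1A)-/- libraries, against 16.4, 41.2 and 45.2 in controls. Its groups were barely apart, at 0.73 ± 0.49, and without control replicate 1 the difference was 0.28. The pyrimidine nucleotide carriers Slc25a36 and Slc25a33 were at -0.19 ± 0.36 and -0.03 ± 0.68. The peroxisomal carrier Slc25a17, the folate and flavin carrier Slc25a32 and Slc25a16 lay between -0.77 and -0.24 and overlapped between genotypes.

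The mitoferrins, which import iron for haem and iron-sulphur clusters, were close to level. Slc25a37 had 592.8, 779.9 and 662.0 normalized counts in Prrx1(R1A)-/- libraries, against 537.3, 671.1 and 652.6 in controls (log2 fold change 0.13 ± 0.22). Slc25a28 had 206.3, 193.2 and 208.2 in Prrx1(R1A)-/- libraries, against 216.4, 280.9 and 206.9 in controls (-0.20 ± 0.26). Both overlapped, and both intervals stayed within a 2-fold change.

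Carriers that resemble uncoupling proteins had 1 of 3 members above 0. Slc25a27 had 134.6, 81.6 and 102.1 normalized counts in Prrx1(R1A)-/- libraries, against 172.4, 122.1 and 158.7 in controls, at -0.52 ± 0.32. Slc25a30 had 95.5, 91.2 and 88.9 in Prrx1(R1A)-/- libraries, against 74.2, 96.6 and 58.6 in controls, at 0.29 ± 0.34. The lowest tested value of the family, 7.20 normalized counts, was that of Slc25a14 in Prrx1(R1A)-/- replicate 2, and its log2 fold change was -0.90 ± 0.68. All of them overlapped between genotypes.

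Orphan and other carriers had 3 of 5 tested members above 0, with Slc25a34 at the top. Its closest relative in the family, Slc25a35, had 73.8, 63.6 and 49.5 normalized counts in Prrx1(R1A)-/- libraries, against 57.9, 83.9 and 89.7 in controls, at -0.30 ± 0.37 with overlapping groups. Slc25a46, an outer membrane member linked to mitochondrial shape, had 217.1, 206.4 and 166.8 in Prrx1(R1A)-/- libraries, against 96.9, 334.8 and 249.2 in controls. The Prrx1(R1A)-/- values lay inside the control range (-0.04 ± 0.41). Slc25a45 had 148.7, 158.4 and 185.0 in Prrx1(R1A)-/- libraries, against 148.5, 95.1 and 148.3 in controls, so that Prrx1(R1A)-/- replicate 1 and control replicate 1 were almost equal (0.35 ± 0.30). Slc25a47, known as a liver carrier, had 59.7, 100.8 and 41.4 in Prrx1(R1A)-/- libraries, against 37.7, 38.2 and 38.6 in controls. The controls were nearly identical and the Prrx1(R1A)-/- libraries spread upwards from them, at 0.71 ± 0.44 on the log2 scale (adjusted p = 0.542 by limma). Slc25a47 and Slc25a29 lie head to head on chromosome 12 in GENCODE, 162 bases apart. In RefSeq the window before the start site of Slc25a47 is chr12:108850879-108851128, further from Slc25a29, so this distance depends on the annotation. Besides those given above, exons of Slc25a26, Slc25a33, Slc25a35, Slc25a37 and Slc25a46 share bases with a gene on the other strand. Under the filter were Slc25a43 (at most 8.69 normalized counts), Slc25a53 (at most 14.1), Slc25a54 (0, 3 and 3 reads in Prrx1(R1A)-/- libraries and 0 in each control) and Slc25a48 (2 reads in Prrx1(R1A)-/- replicate 3 and 0 elsewhere).

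**Figure D4:**
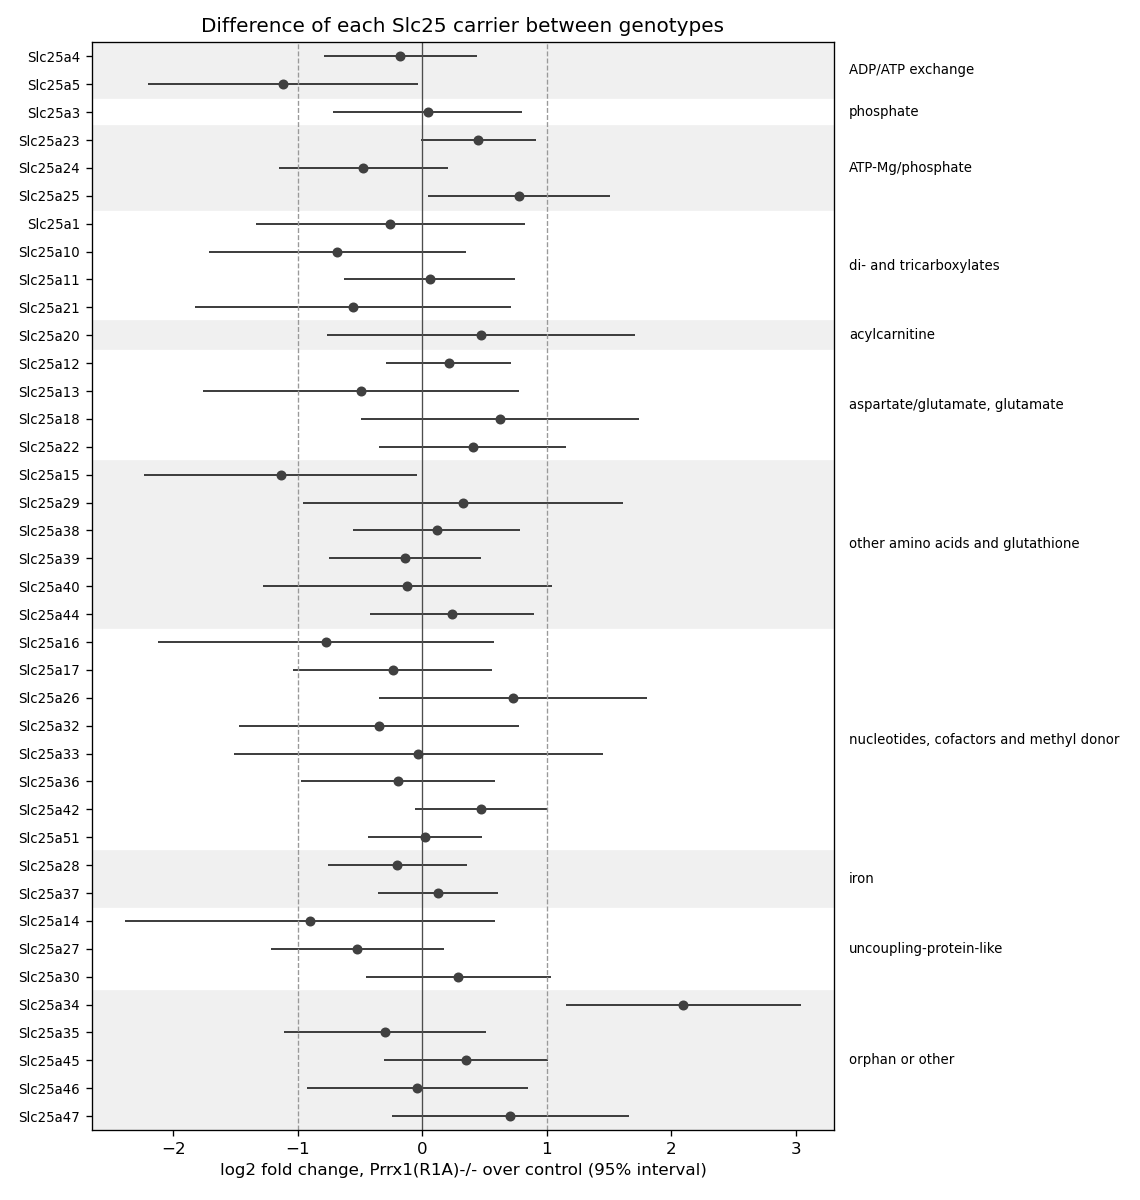
Log2 fold change of 39 tested Slc25 genes, Prrx1(R1A)-/- over control, with the 95% interval of each, grouped by substrate; dashed lines mark a 2-fold change. The interval of Slc25a34 runs from 1.16 to 3.04 and those of Slc25a25, Slc25a5 and Slc25a15 end close to 0.

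Whether relatives with the same substrate shifted against each other was tested for 5 pairs as the log2 ratio of the first to the second in each library. A count of 1 was added to each value before the ratio, so library scaling cancels only in part for the low members. The Slc25a4 to Slc25a5 ratio was 4.15, 4.88 and 5.08 in Prrx1(R1A)-/- libraries, against 3.96, 3.10 and 4.23 in controls. Only Prrx1(R1A)-/- replicate 1 fell within the control range, and the difference of 0.94 did not pass (exact permutation p = 0.2, two-sided, adjusted p = 0.5 over the 5 pairs). The Slc25a13 to Slc25a12 ratio averaged -3.99 ± 0.52 in Prrx1(R1A)-/- and -3.28 ± 0.81 in control nuclei (difference -0.70, exact permutation p = 0.3; SD, n = 3 each). The Slc25a28 to Slc25a37 ratio averaged -1.73 ± 0.25 in Prrx1(R1A)-/- and -1.40 ± 0.22 in control nuclei (difference -0.33, exact permutation p = 0.2). Differences for Slc25a22 to Slc25a18 (-0.22, exact permutation p = 0.8) and Slc25a33 to Slc25a36 (0.16, exact permutation p = 0.6) were smaller. Adjusted over the 5 pairs p was 0.5 to 0.8, and 3 against 3 libraries cannot go below 0.1.

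Several members, among them Slc25a3, Slc25a11, Slc25a20 and Slc25a39, changed sign when control replicate 1 was left out. That library was the lowest of the 6 libraries for 15 of 40 tested members (37.5%), beside 22.6% of all tested genes. Without it the family median was -0.23, against -0.01 over all genes in that setting, and 10 of 40 members had an unadjusted p under 0.05 by limma, 3 higher (14.6% of all genes) and 7 lower (11.2%), beside 25.8% of all genes in either direction. Slc25a34 was the 1 member that passed then (6.10% of all genes passed higher and 9.16% in either direction), and the others with an unadjusted p under 0.05 were Slc25a25 and Slc25a23 above 0 and Slc25a5, Slc25a24, Slc25a15, Slc25a13, Slc25a46, Slc25a4 and Slc25a32 below. Their adjusted p was 0.067 to 0.190 by limma. Slc25a13 was at -1.11 and Slc25a46 at -0.56 in this setting. Ribosomal RNA share was highest in this library as well; its part in these values was not tested.

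**Figure D5:**
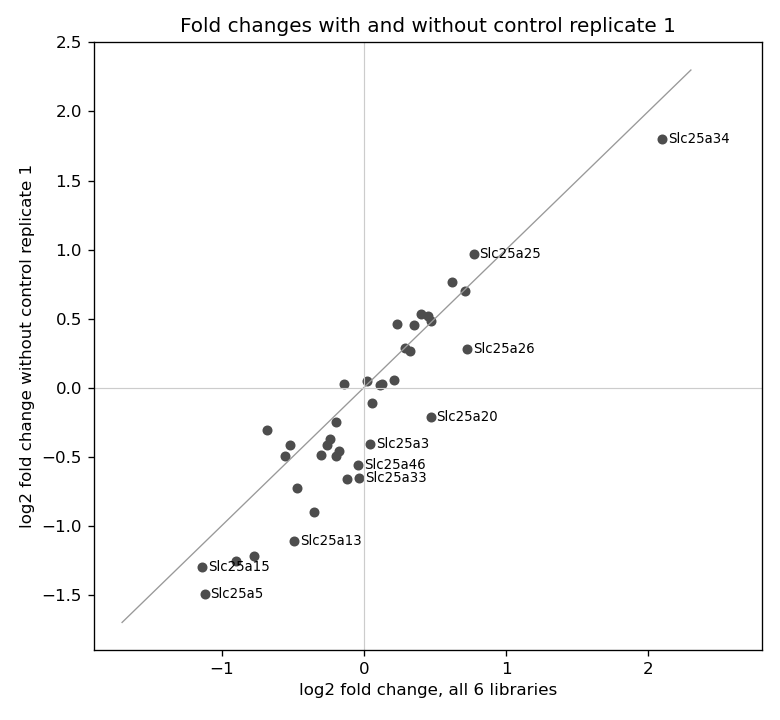
Log2 fold change of 39 tested Slc25 genes, Prrx1(R1A)-/- over control, with all 6 libraries (horizontal) and without control replicate 1 (vertical); the line marks equal values. Slc25a34 stays the highest at 1.80 without that library, while Slc25a20 and Slc25a3 go below 0 and Slc25a13, Slc25a33 and Slc25a46 lie lower.

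Relatives of the family that carry other symbols are the uncoupling proteins and the Mtch genes. Ucp3, the uncoupling protein of muscle, had 154.2, 271.2 and 132.4 normalized counts in Prrx1(R1A)-/- libraries, against 11.3, 84.6 and 123.8 in controls. Its groups did not overlap, though Prrx1(R1A)-/- replicate 3 and control replicate 3 were close, at 1.81 ± 0.71 on the log2 scale (adjusted p = 0.359 by limma). Control replicate 1 was far below the other controls, at 9 reads, so this fold change leans on that library. Mtch2, an insertase of the outer membrane, averaged 90.7 ± 11.6 in Prrx1(R1A)-/- and 155.1 ± 72.5 in control nuclei (-0.64 ± 0.40). Mtch1 averaged 820.6 ± 51.9 in Prrx1(R1A)-/- and 801.8 ± 124 in control nuclei, and Ucp2 4140 ± 663 and 4186 ± 386 (SD, n = 3 each), both within 0.05 of 0 on the log2 scale. Of 4 tested relatives 0 passed by limma (0.0137% of all genes), and 1, Ucp3, had an unadjusted p under 0.05 (11.9% of all genes); Ucp1 was under the filter.

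A list of 28 other gene symbols of mitochondrial transport covered the pyruvate carrier, calcium uniporter, porins, sideroflexins and ABC transporters, among others. Of these, 25 had values and all 25 were tested, while Mpc1l, Mcub and Tmbim5 had no values under those symbols. Of these 10 lay above 0 and 15 below, with a median of -0.13, and 0 passed by limma (0.0137% of all genes), with 1 at an unadjusted p under 0.05, a share of the list below the 11.9% of all genes. That gene was Abcb8, an inner membrane ABC transporter, with 232.9 ± 97.4 normalized counts in Prrx1(R1A)-/- and 116.6 ± 59.9 in control nuclei (SD, n = 3 each; log2 fold change 1.04 ± 0.46, adjusted p = 0.409). Sfxn1, a serine transporter, averaged 196.2 ± 66.4 in Prrx1(R1A)-/- and 294.4 ± 52.0 in control nuclei (-0.62 ± 0.30). Smdt1, a subunit of the calcium uniporter, had 168.0 to 221.5 in Prrx1(R1A)-/- libraries, all below the 226.9 to 303.2 of the controls, at -0.51 ± 0.26 (adjusted p = 0.458 by limma).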

How the data were processed

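Nuclear RNA of 6 libraries, 1 per animal, was analysed as 3 Prrx1(R1A)-/- against 3 control. The authors aligned with STAR to mm10 and used DESeq2, per the submitters' processing notes; no source used here gives the read counter, the annotation or versions. The deposited expression table holds normalized read counts (a signal value per gene and library). Divided by the smallest step of its library, each value was whole to within 0.01 reads, with 1 exception (Prrx1 in control replicate 3), so 99.999% of values gave whole reads. The authors' deposited comparison table gives the mean signal, log2 fold change, its standard error, a Wald score, p-value, adjusted p-value and its −log10. 847 entries had no value.

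The test was limma-trend (limma 3.58.1, R 4.3.3) on log2 of the normalized count plus 1, with no covariate, over 14584 genes, two-sided, with Benjamini-Hochberg adjustment over all of them and a threshold of 0.05; a fold change on this scale understates that of low genes. Errors of fold changes are standard errors. edgeR 4.0.16 and DESeq2 1.42.0 were run on recovered reads, rounded to whole numbers. The fit was tested on simulated data. There limma recovered 17.3% of 2-fold and 72.5% of 4-fold changes at the adjusted threshold, edgeR 17.3% and 74.5%, and DESeq2 30.6% and 82.4%. Genes simulated without a change were called 6 times by limma, 7 by edgeR and 28 by DESeq2, among 14299 genes fitted. Most 2-fold changes would thus be missed, so a member that did not pass is not shown to be unchanged. Exonic lengths, positions and overlaps are those of GENCODE M21 (GRCm38), matched by identifier for all 47 members. Depth limits: a count of 0 allows 3 reads, counting error only. Figures were drawn with matplotlib 3.10.9.

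Named genes are the 10 with the smallest p, the 6 with the highest mean count, the 2 most abundant of each substrate group, both of each tested pair, and any that passed; the others were named to account for the members, except 1 tested member that enters the counts and is not reported here. From each list of other genes the 3 with the smallest p were taken. Members, lists and tests were chosen with earlier results of these data known. Alternatives were pseudocounts of 0.5 and 5, filters of none and 50, TMM and quantile scaling, edgeR, DESeq2, a replicate block and each library left out.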

Additional observations from a re-analysis of the deposited data

How the results depend on the processing

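The count of Slc25 genes past the adjusted threshold was 0 by limma and under every other limma or edgeR setting except without control replicate 1; it was 1, Slc25a34, with DESeq2. Leaving out 1 library gave 0 to 1. The count at an unadjusted p under 0.05 by limma was 4 of 40 with all libraries. It was 2 of the 29 members that passed a filter at 50 (13.5% of all genes in that setting). When 1 library was left out it was 1 to 10 of 40. The 10 came without control replicate 1 (25.8% of all genes), and the 1 without control replicate 2 (7.65%) or 3 (8.95%). The family median of -0.01 ran from -0.23 (without control replicate 1) to 0.11 in the same runs. The labels give replicate numbers and name no pairing of the libraries. Same-numbered deviations from the group means correlated at -0.11, -0.02 and -0.09, which does not exclude a pairing. With the replicate block 2 members had an unadjusted p under 0.05 (9.33% of all genes) and 0 passed by limma. Slc25a34 had adjusted p = 0.308 with the block, and the block changed no adjusted call among Slc25 genes; over all genes the 2 that limma called became 0. For the 5 ratios of relatives an exact sign-flip test over the numbered pairs, added after the data had been seen, gave p = 0.25 to 1.0, and with 3 pairs it cannot go below 0.25.

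The members below changed sign with the setting and passed in none of the settings run. Slc25a3 was at -0.0076 with quantile scaling, -0.092 with edgeR, -0.084 with DESeq2 and -0.41 to 0.28 with 1 library left out; Slc25a51 was at -0.047 with quantile scaling and -0.059 to 0.066 with 1 library left out. With 1 library left out Slc25a1 ran from -0.57 to 0.31, Slc25a4 from -0.46 to 0.085, Slc25a11 from -0.15 to 0.23, Slc25a20 from -0.22 to 0.86, Slc25a33 from -0.65 to 0.50, Slc25a36 from -0.49 to 0.091, Slc25a39 from -0.32 to 0.026 and Slc25a46 from -0.56 to 0.33. The ratio difference of Slc25a22 to Slc25a18 ran from -0.56 to 0.33 and that of Slc25a33 to Slc25a36 from -0.16 to 0.51. Slc25a34 kept its direction in all 15 alternatives (1.80 to 2.34). Since its groups did not overlap, leaving out 1 library could not have reversed it. The cause of the shifts between settings was not tested.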
